A study of Homo sapiens with 20 samples.

Results

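The baseline expression of mesenchymal-like and basal-like triple-negative breast cancer (TNBC) cell lines was compared on the 10 un-stimulated arrays among the 20 of the series, with no use of the response to wound fluid. TNBC is breast cancer without the estrogen and progesterone receptors and without amplified HER2. MDA-MB-231, BT549 and MDA-MB-157, which the study classes as mesenchymal-like, gave 6 arrays, and MDA-MB-468 and SUM 149, which it classes as basal-like, gave 4. All are established human lines without an engineered allele, and the labels themselves name the line and the treatment but no subtype. Un-stimulated cultures were starved of serum for 24 h and then left for 48 h without wound-healing fluids (WHFs). The other 10 arrays hold the same lines after the same starvation and 48 h with 5% WHFs. Each line has 2 un-stimulated cultures, labelled A and B, and the mean of both was taken, so that 3 lines were compared with 2. Each line comes from a single tumor, and the lines were kept in different media, MDA-MB-231 and BT549 in the same one.

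Between 20793 and 22865 probes were detected per array, and every array was most like the other culture of its own line (r from 0.989 to 0.992 over probes, which are not independent replicates). Over the 23516 probes tested, the line most like MDA-MB-231 was the basal-like SUM 149 (r = 0.877), followed by BT549 (0.860), MDA-MB-157 (0.852) and MDA-MB-468 (0.842), while BT549 and MDA-MB-157 were most like each other (0.877) and MDA-MB-468 was most like SUM 149 (0.869). MDA-MB-231 was hybridized on 1 chip, MDA-MB-468 and SUM 149 on another, and BT549 with MDA-MB-157 on a further chip. No chip held both subtypes, so chip and subtype cannot be told apart in any result that follows. Values are log2 of the background-corrected and normalized fluorescence of a probe, and the dimmest detected probe of an array lay between 5.51 and 5.71, so that values near 5 are at background. Differences are mesenchymal-like minus basal-like on that log2 scale, which understates the change of dim genes. In bulk cultures, fewer cells of a type and less RNA per cell cannot be told apart. With 3 lines against 2 an exact permutation test cannot go below p = 0.1, and the p-values given are those of limma, adjusted over all tested probes, which measure the spread between these lines.

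Epithelial cells hold together through E-cadherin junctions and keratin filaments, and carry a polarity apparatus that separates their apical from their basal membrane. Mesenchymal cells lack these junctions, build filaments of vimentin, and secrete and remodel matrix. Carcinoma cells can pass from the first state towards the second, a process known as epithelial-mesenchymal transition. Transcription factors of the ZEB, SNAIL and TWIST families repress epithelial genes there through sites known as E-boxes, while GRHL2, OVOL and ESRP proteins and microRNAs such as miR-205 and the miR-200 family maintain the epithelial state. In the normal breast, basal cells lie under the luminal cells and make keratins 5 and 14.

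The marker of the epithelial side followed the labels of the study. CDH1, which encodes E-cadherin, read 11.83 and 11.48 in MDA-MB-468, with 12.50 and 12.37 in SUM 149, against 4.65 to 5.89 (median 4.88) on the 6 mesenchymal-like arrays. It was detected on 4 of 4 basal-like arrays and on 1 of 6 mesenchymal-like arrays, the A culture of MDA-MB-157. The groups were far apart, by −6.99 (standard error 0.462, adjusted p = 0.0241). No fold is given where only some arrays of the dimmer subtype detected a gene. VIM, which encodes vimentin, was bright in all lines. It read 15.33 to 15.63 (median 15.52) on the mesenchymal-like arrays, 11.93 and 11.17 in MDA-MB-468, with 13.35 and 13.06 in SUM 149. The arrays did not overlap, with a difference of 3.12 (standard error 0.549), but VIM did not pass (adjusted p = 0.193).

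The receptors that define TNBC were dim or alike. ESR1, the estrogen receptor, read 6.93 and 6.81 in MDA-MB-468, 7.10 and 7.29 in SUM 149 and 4.85 to 5.53 (median 4.93) in the mesenchymal-like lines, and its difference of −1.99 (standard error 0.323) did not pass (adjusted p = 0.170). PGR, the progesterone receptor, was above background on 2 arrays alone, those of MDA-MB-157 at 5.97 and 5.89, and was not tested. ERBB2, which encodes HER2, lay between 9.39 and 9.94 on all 10 arrays (difference −0.08, adjusted p = 0.985). Of 22 steroid receptor, HER2 and luminal genes with a probe, 15 passed the filter on dim probes and 0 were called, with 0 higher and 3 lower at an unadjusted p under 0.05 (3.9% and 4.39% of all tested genes).

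More probes were called lower than higher in the mesenchymal-like lines. A probe was called when its adjusted p was under 0.1. Of 23516 probes tested, 62 (0.264%) were called lower and 18 (0.0765%) higher. They belong to 59 named genes, 47 lower and 12 higher, and 8 called probes carry no gene symbol. By 1 probe per gene, the brightest, 42 of 12883 genes were called lower (0.326%) and 12 higher (0.0931%). The smallest called difference was 2.56 in size. All 62 lower probes were detected on every basal-like array and 38 of them on no mesenchymal-like array, while all 18 higher probes were detected on every mesenchymal-like array and 10 of them on no basal-like array. These on-off probes had to differ to pass the filter. At an unadjusted p under 0.05, limma gave 1712 probes. By gene, 4.39% of all tested genes were lower and 3.9% higher at an unadjusted p under 0.05, and the lines did not overlap for 11.5% that were lower and 11.9% that were higher. The counts of each gene group stand against these shares.

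**Figure D1:**
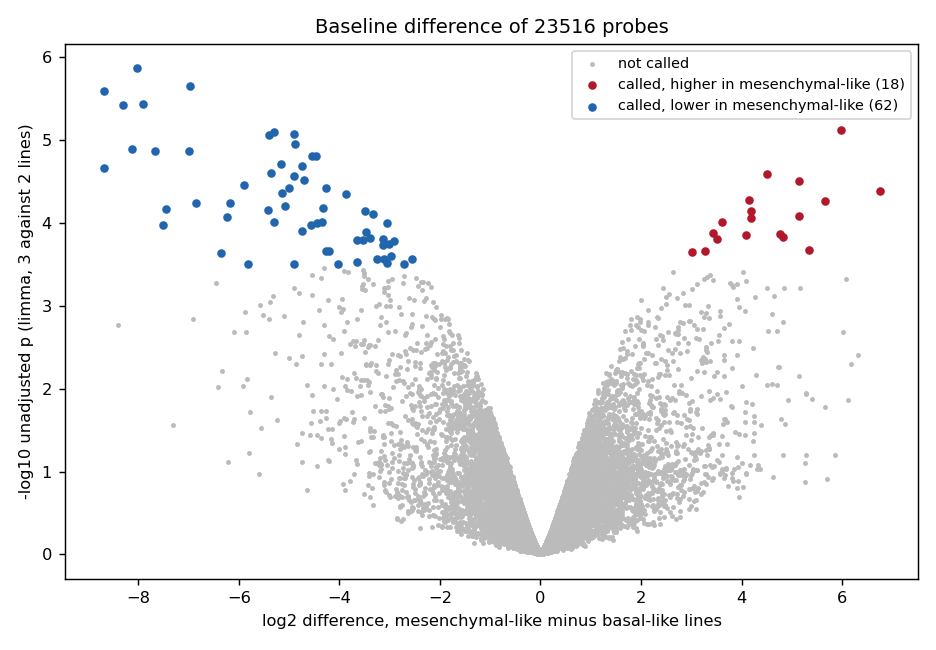
Difference (x axis, log2, mesenchymal-like minus basal-like) against −log10 of the unadjusted limma p (y axis) for the 23516 tested probes, with the 80 called probes in colour. The 62 called lower reach −8.69 and the 18 called higher reach 6.74.

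The number of calls changed when a line was left out. Such a fit also estimates the spread from fewer lines. Whether the change came from that or from the line itself was not tested. With all lines, limma gave 1712 probes at an unadjusted p under 0.05. With either BT549 or MDA-MB-157 left out, or MDA-MB-468, limma called 0 probes, with 1532, 1599 and 1499 at an unadjusted p under 0.05. Without MDA-MB-231 it called 58 higher and 87 lower, 50 of which were among the 80. Without SUM 149 it called 15 and 47, 27 of them among the 80. In each of these fits all 80 probes kept their sign. They could not do otherwise, since the line means of no called probe overlapped between the subtypes.

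**Figure D2:**
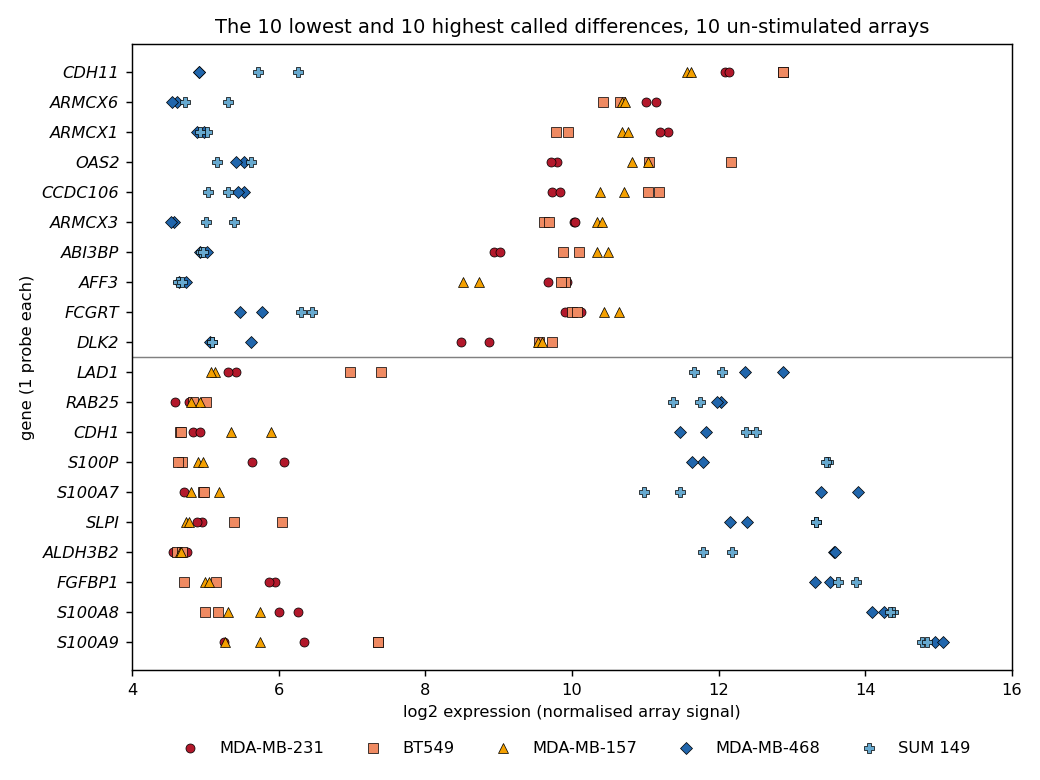
Log2 expression (x axis) on each of the 10 un-stimulated arrays for the 10 genes with the lowest and the 10 with the highest called differences (y axis), with 1 symbol shape per line. On every row the 6 mesenchymal-like arrays (warm colours) and the 4 basal-like arrays (blue) do not overlap.

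The lowest differences belonged to secreted and calcium-binding proteins. S100A8 and S100A9 encode the subunits of calprotectin, an inflammatory protein also made by stratified epithelia under stress. S100A9 read 14.95 and 15.06 in MDA-MB-468, 14.77 and 14.84 in SUM 149 and 5.25 to 7.35 (median 6.04) in the mesenchymal-like lines, where both BT549 arrays were the highest. S100A8 read 14.09 and 14.26, 14.38 and 14.34, and 4.99 to 6.27 (median 5.53). Both were near the top of the scale in the basal-like lines and near background in the others, a difference of −8.69 for S100A9 (standard error 0.629, adjusted p = 0.0282, detected on 4 of 6 mesenchymal-like arrays) and −8.69 for S100A8 (standard error 0.419, adjusted p = 0.0176, detected on 3 of 6). S100A7, psoriasin, read 13.39 and 13.90 in MDA-MB-468, 10.97 and 11.47 in SUM 149 and at most 5.18 elsewhere, so it was at least 113-fold lower (adjusted p = 0.0495). Here the "at least" sets the dimmest detected signal of each array in place of readings below background.

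Other members of the family behaved likewise in part. S100P was lower by −7.45 (adjusted p = 0.0431) and detected on 1 of 6 mesenchymal-like arrays, with MDA-MB-231 at 6.07 and 5.64 the highest of the mesenchymal-like lines. S100A14 was expressed everywhere, at 6.39 to 7.53 (median 6.96) against 9.83 to 10.62, a difference of −3.25 (adjusted p = 0.0864). Of 26 S100 and annexin genes on the array, 23 were tested and 5 called lower, those just named (0.326% of all tested genes were). S100A7 passed the filter only through the basal-like arrays. S100A7A, a close relative of S100A7 that the list did not hold, was also called (−4.89, adjusted p = 0.0304), and signal can be shared between the pair. At an unadjusted p under 0.05, 7 were lower (4.39% of all tested genes were) and 4 higher (3.9%), and the median over the tested members was −0.19, against 0.01 over all tested genes.

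Further genes with large differences were secreted or metabolic. FGFBP1, which releases fibroblast growth factors from the matrix, read 13.52 and 13.31 in MDA-MB-468, 13.63 and 13.88 in SUM 149 and 4.71 to 5.95 (median 5.10) in the mesenchymal-like lines (−8.30, standard error 0.431, adjusted p = 0.0176). SLPI, the secretory leukocyte protease inhibitor, was lower by −7.67 (adjusted p = 0.0241) and detected on 1 of 6 mesenchymal-like arrays, and ALDH3B2, an aldehyde dehydrogenase, was at least 144-fold lower (adjusted p = 0.0241). Neither overlapped between subtypes, although the third ALDH3B2 probe, at −2.51, was not called. LCN2, lipocalin 2, did not follow the subtypes, since MDA-MB-231 at 13.84 and 13.92 exceeded MDA-MB-468 at 12.71 and 13.59, while BT549 and MDA-MB-157 were at 5.27 to 5.48.

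Genes of cell junctions and polarity were lower in the mesenchymal-like lines beyond CDH1. CRB3, an apical polarity determinant, read 9.85 and 9.69 in MDA-MB-468, 10.51 and 10.37 in SUM 149 and 5.23 to 6.53 (median 5.54) in the mesenchymal-like lines (−4.44, standard error 0.431, adjusted p = 0.0490), and both its probes were called. MARVELD3, a tight junction protein, was not detected on any mesenchymal-like array and read 8.17 to 8.89 on the basal-like ones, so all 3 of its probes were called and the brightest was at least 7.57-fold lower. Of 26 adhesion and polarity genes on the array, 23 were tested, of which 2 passed only through the basal-like arrays. Of these 23, 3 were called lower (0.326% of all tested genes were), and 15 did not overlap between the lines and lay lower (11.5%). The median was −2.40, with 22 below 0.

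EPCAM and CLDN7 differed among the mesenchymal-like lines. EPCAM, the epithelial cell adhesion molecule, read 14.66 and 14.59 in MDA-MB-468, with 14.36 and 14.14 in SUM 149, then 9.58 and 9.59 in MDA-MB-231, 9.68 and 9.40 in MDA-MB-157, and background in BT549 at 5.15 and 5.20. Its brightest probe did not pass (−6.34, adjusted p = 0.326), while 1 of its 3 probes did. CLDN7, a tight junction claudin, read 11.18 and 11.40 in MDA-MB-231, close to 12.07 and 12.14 in MDA-MB-468, but 5.03 and 5.12 in BT549 (difference −4.84, adjusted p = 0.671). MDA-MB-231 was nearer to the basal-like mean than to the other mesenchymal-like lines for 10 of the 23 adhesion genes (50.1% of all tested genes).

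Several regulators that keep the epithelial program were at background in the mesenchymal-like lines. OVOL2, a zinc finger repressor of mesenchymal genes, read 9.85 and 9.90 in MDA-MB-468, 10.83 and 10.72 in SUM 149, and 4.55 to 5.54 (median 4.63) in the others (−5.42, standard error 0.491, adjusted p = 0.0431). ESRP1, which directs epithelial splicing, read 8.14 to 8.27 on the basal-like arrays and was not detected on the 6 mesenchymal-like arrays, at least 6.09-fold lower (adjusted p = 0.0490). GRHL2, a grainyhead factor that activates CDH1, was likewise undetected in the mesenchymal-like lines, but read 10.07 and 10.42 in MDA-MB-468, with 7.59 and 7.77 in SUM 149, and with that spread it did not pass (−4.21, adjusted p = 0.210). KLF5, an epithelial Krüppel-like factor, was present everywhere and differed by −2.11 (adjusted p = 0.299). Of 17 such regulators on the array, 13 were tested, 3 of them passing only through the basal-like arrays, and 2 were called lower (0.326% of all tested genes) with 9 lower and not overlapping (11.5%).

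The microRNA gene MIR205 behaved like these regulators. MiR-205 is a microRNA of basal and stratified epithelia that targets the ZEB messages, and its probe, which measures RNA from the locus rather than the mature form alone, read 9.84 and 9.94 in MDA-MB-468, 9.28 and 9.61 in SUM 149 and 4.72 to 5.38 (median 4.89) in the mesenchymal-like lines. It was detected on all basal-like arrays and on 0 of 6 others, at least 16.7-fold lower (standard error of the log2 difference 0.339, adjusted p = 0.0281). The mature miR-205-5p of RefSeq, at chr1:209432166-209432187 (plus strand, GRCh38.p14), is shown because its seed (bases 2 to 8, in capitals) is what pairs with target messages.
hsa-miR-205-5p: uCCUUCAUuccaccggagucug
Probes for MIR200A, MIR200B, MIR200C, MIR141 and MIR429 of the miR-200 family were at background on all 10 arrays and say nothing of those microRNAs.

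Membrane traffic genes and surface proteases of epithelia held 5 called genes among 27 tested, all lower (0.326% of all tested genes). RAB25, an epithelial GTPase of apical recycling, read 12.04 and 11.98 in MDA-MB-468, 11.37 and 11.75 in SUM 149 and 4.58 to 5.01 (median 4.82) in the mesenchymal-like lines, at least 72.3-fold lower (adjusted p = 0.0176). The proteases followed it: ST14, matriptase, was at least 17.6-fold lower (adjusted p = 0.0343), and PRSS8, prostasin, which matriptase activates, was lower by −5.35 (adjusted p = 0.0296). PROM2, a protein of membrane protrusions, was lower by −6.23 (adjusted p = 0.0473), with MDA-MB-231 at 6.62 and 6.81 above background and the other mesenchymal-like lines at 5.02 to 5.49. Of 29 genes on the array, 27 were tested, 6 of them passing only through the basal-like arrays, 19 were lower without overlap (11.5% of all tested genes), and 25 were below 0 with a median of −3.45. TMEM30B, a subunit of lipid flippases named after its values were seen, was at least 27.4-fold lower (adjusted p = 0.0281).

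The E-box that ZEB and SNAIL factors recognize, CAGGTG or its complement CACCTG, was counted on both strands in RefSeq promoters, from 250 bases before to 50 after each start (GRCh38.p14). Of the 47 genes called lower, 31 had a promoter in the table and 22 of these (71%) held the motif, 12 (38.7%) more than once. Of the 12 called higher, 9 had a promoter and 2 (22.2%) held it. Counted by promoter, since a gene can have several, 27 of 42 (64.3%) held it for the lower genes, 6 of 13 (46.2%) for the higher genes and 18.5% for all tested genes. Among 10249 tested genes with a promoter, 23.7% held it and 3.57% held it more than once, and over all 27305 genes 24.1% did. A match describes these letters only and shows no binding. The search was made after the calls were known and carries no test. The promoters of CRB3 (chr19:6464021-6464320, plus strand, 5 matches), TMEM30B (chr14:61281289-61281588, minus strand, 4 matches) and RAB25 (chr1:156060910-156061209, plus strand, 2 matches) are shown because these called genes hold several matches, which are in capitals.
CRB3: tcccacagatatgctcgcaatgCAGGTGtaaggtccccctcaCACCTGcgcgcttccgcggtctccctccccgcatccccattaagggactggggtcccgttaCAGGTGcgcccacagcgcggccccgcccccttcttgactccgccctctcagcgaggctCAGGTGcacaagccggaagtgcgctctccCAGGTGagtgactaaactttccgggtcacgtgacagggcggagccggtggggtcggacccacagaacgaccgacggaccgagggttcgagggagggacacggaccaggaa
TMEM30B: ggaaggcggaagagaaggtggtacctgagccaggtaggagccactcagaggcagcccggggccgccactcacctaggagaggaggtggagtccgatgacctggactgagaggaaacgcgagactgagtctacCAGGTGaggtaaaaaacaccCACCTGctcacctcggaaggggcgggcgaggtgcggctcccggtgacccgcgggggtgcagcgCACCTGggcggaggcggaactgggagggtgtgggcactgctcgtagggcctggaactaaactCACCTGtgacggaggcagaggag
RAB25: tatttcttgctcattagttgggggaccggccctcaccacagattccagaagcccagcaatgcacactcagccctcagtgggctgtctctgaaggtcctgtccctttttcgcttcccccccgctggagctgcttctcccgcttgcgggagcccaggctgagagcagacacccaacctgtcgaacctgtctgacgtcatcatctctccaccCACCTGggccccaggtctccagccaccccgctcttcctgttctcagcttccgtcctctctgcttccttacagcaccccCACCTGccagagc

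Keratins differed in how far they followed the subtypes, and KRT19 was shared by MDA-MB-231 with the basal-like lines. KRT5, a keratin of basal cells, read 11.36 and 10.85 in MDA-MB-468, 11.39 and 11.65 in SUM 149 and 4.60 to 6.30 (median 4.76) elsewhere, with BT549 highest (−6.18, standard error 0.540, adjusted p = 0.0410). KRT14, its partner, was undetected in the mesenchymal-like lines but only 6.33 to 8.14 in the basal-like ones, and did not pass (−2.37, adjusted p = 0.262). KRT16 passed by 1 of its 2 probes (−5.39) and not by the brighter one (−3.95, adjusted p = 0.135), and signal can be shared with a near-identical pseudogene, KRT16P2, whose probe was also called. Of the simple epithelial keratins, KRT19 overlapped between the subtypes. It read 13.77 and 13.95 in MDA-MB-231, between MDA-MB-468 at 14.20 and 14.75 and SUM 149 at 12.74 and 12.78, while BT549 and MDA-MB-157 were at 4.89 to 5.42. KRT8 and KRT7 did not overlap, but KRT8 was at background only in BT549 (4.98 and 5.38) and KRT7 only in MDA-MB-157 (5.07 and 4.95), and neither passed (adjusted p = 0.761 and 0.708). Of 15 keratins on the array, 10 were tested, 1 of them passing only through the basal-like arrays. By the brightest probe, 1 was called lower (KRT5), against 0.326% of all tested genes. MDA-MB-231 was nearer to the basal-like mean for 6 of the 10, a count near the share over all tested genes (50.1%).

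Genes of basal and myoepithelial cells had differences below 0 in 17 of 18 tested members of 25 on the array, with a median of −2.68. Of these 18, 2 passed only through the basal-like arrays. By the brightest probe, 2 were called lower (0.326% of all tested genes), and 11 were lower without overlap (11.5%). Besides KRT5, TRIM29, a TRIM family protein of basal epithelium, was called, at 10.58 and 10.47 in MDA-MB-468, with 9.01 and 9.77 in SUM 149 with no detection in the others (at least 20.4-fold, adjusted p = 0.0431). LAD1, ladinin, a protein of the basement membrane zone, was lower by −6.35 (adjusted p = 0.0775), with BT549 at 6.97 and 7.39 above the other mesenchymal-like lines. SERPINB5, maspin, was undetected in all mesenchymal-like arrays and read 9.08 and 8.84 in MDA-MB-468, with 11.55 and 11.78 in SUM 149, which with that spread did not pass (−5.38, adjusted p = 0.141). GPC4, a glypican that binds growth factors, was at least 16.4-fold lower (adjusted p = 0.0919).

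Of the 12 genes called higher in the mesenchymal-like lines, CDH11 had the highest difference. It encodes cadherin-11, an adhesion molecule of mesenchymal cells and osteoblasts. CDH11 read 12.09 and 12.14 in MDA-MB-231, 12.88 and 12.87 in BT549 and 11.57 and 11.62 in MDA-MB-157, against 4.92 and 4.92 in MDA-MB-468, with 6.26 and 5.71 in SUM 149. The 3 mesenchymal-like lines were close to each other, and the difference was 6.74 (standard error 0.552, adjusted p = 0.0356), with detection on 2 of 4 basal-like arrays. CDH2, N-cadherin, which is often read as its mesenchymal counterpart, did not sort by subtype. It was 13.51 and 13.29 in BT549, 11.28 and 10.95 in MDA-MB-157 and 11.18 and 10.62 in SUM 149, but 6.01 and 5.95 in MDA-MB-231, with MDA-MB-468 at background (2.25, adjusted p = 0.930, and −0.73 without MDA-MB-468).

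None of the repressors of the epithelial state was called, and they differed in how many mesenchymal-like lines expressed them. ZEB2 read 7.15 to 8.80 (median 8.35) in the mesenchymal-like lines and 5.11 to 6.19 in the basal-like ones, without overlap (2.62, adjusted p = 0.263). ZEB1 was at 8.20 and 8.09 in BT549 and 6.32 and 7.03 in MDA-MB-231, but under the dimmest detected signal in MDA-MB-157, at 5.00 and 5.34, and in both basal-like lines. SNAI2, SLUG, read 9.81 to 13.21 (median 11.19) in the mesenchymal-like lines, 8.28 and 8.36 in SUM 149 and 4.80 and 4.71 in MDA-MB-468 (4.93, adjusted p = 0.452). TWIST1 and PRRX1, developmental factors of mesenchyme, were at background in MDA-MB-231 and above 11 in BT549 and MDA-MB-157, and TWIST1 was also expressed in SUM 149, at 9.35 and 10.04. Of 20 mesenchymal transcription factors on the array, 17 were tested, 1 of them passing only through the mesenchymal-like arrays. Of these 17, 0 were called, with 2 higher and 1 lower at an unadjusted p under 0.05 (3.9% and 4.39% of all tested genes). The median was 1.10, with 13 above 0.

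Mesenchymal surface and cytoskeletal genes were above 0 in 29 of 31 tested members, of 34 on the array, with a median of 2.16, and CDH11 alone was called. Of these 31, 2 passed the filter only through the mesenchymal-like arrays, and 11 did not overlap and were higher (11.9% of all tested genes did so). AXL, a receptor tyrosine kinase, read 9.81 to 12.87 (median 12.17) against 7.39 to 9.18 (3.37, adjusted p = 0.451). GNG11, a G protein gamma subunit, read 11.24 to 12.32 (median 11.81), with SUM 149 at 9.40 and 8.98 well above MDA-MB-468 at 5.15 and 5.65 (4.51, adjusted p = 0.383). For GNG11 the basal-like lines were spread wider (standard deviation 2.68) than the mesenchymal-like ones (0.47). For AXL the mesenchymal-like lines were spread wider (1.41 against 1.02), with MDA-MB-157 the lowest of them at 10.10 and 9.81.

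**Figure D3:**
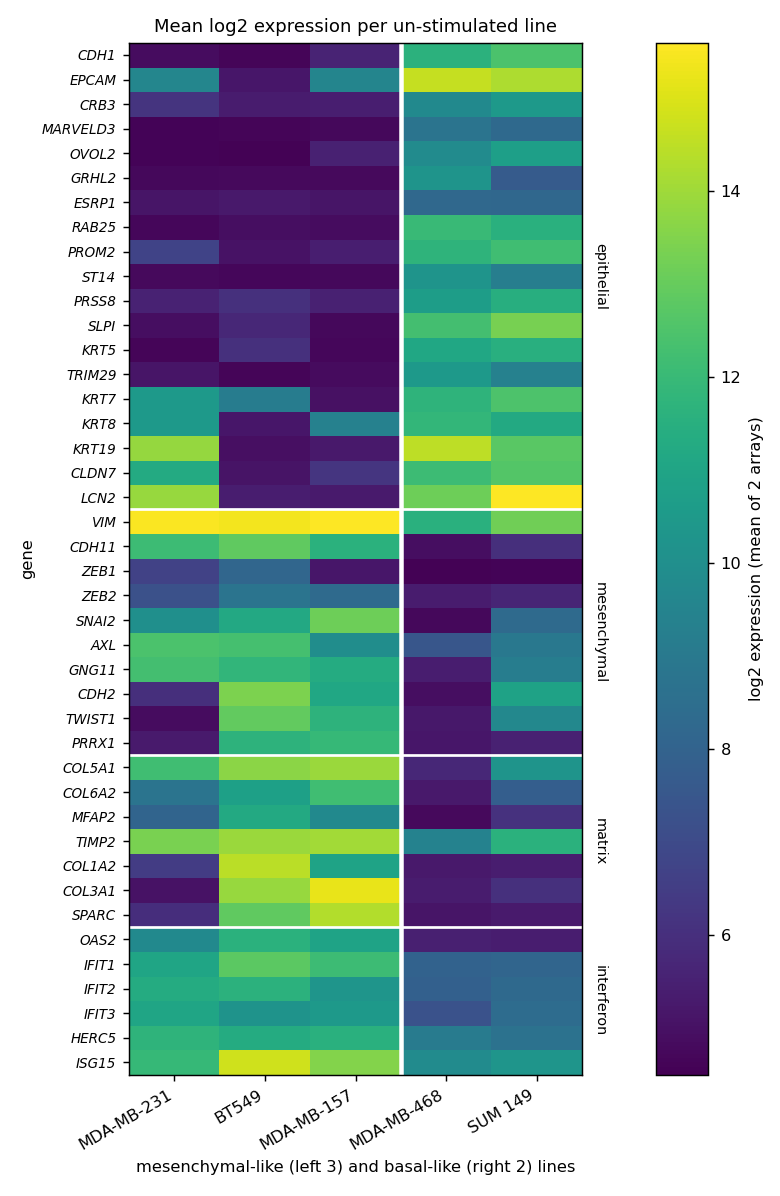
Mean log2 expression of 2 un-stimulated arrays per line (colour scale) for 42 genes (rows) grouped as epithelial, mesenchymal, matrix and interferon, with the mesenchymal-like lines to the left of the white line. MDA-MB-231 shares KRT19, CLDN7 and LCN2 with the basal-like lines, and SUM 149 shares CDH2 and TWIST1 with BT549 and MDA-MB-157.

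Matrix genes were above 0 in 34 of 41 tested members, of 46 on the array, with a median of 1.98. Of the 41, 2 passed the filter only through the mesenchymal-like arrays. Limma called 0 of them, with 10 higher at an unadjusted p under 0.05 (3.9% of all tested genes were). COL5A1, a fibrillar collagen chain, read 12.01 to 14.06 (median 13.67) in the mesenchymal-like lines, 10.50 and 9.98 in SUM 149 and 5.93 and 5.52 in MDA-MB-468 (5.29, adjusted p = 0.421). COL6A2 had 4.07 (adjusted p = 0.511), and MFAP2, a microfibril protein, 4.28 (adjusted p = 0.337). The 3 tested probes of COL6A2 ran from 0.27 to 4.08, and the second MFAP2 probe gave 1.41. By their brightest probes, COL5A1, COL6A2 and MFAP2 did not overlap between subtypes, and in each SUM 149 was the higher basal-like line. SPARC, COL1A2 and COL3A1 were bright only in BT549 and MDA-MB-157. The line means of SPARC and COL1A2 still did not overlap between subtypes, with MDA-MB-231 at means of 5.97 and 6.47. Those of COL3A1 did overlap. COL3A1 read 13.88 and 13.93 in BT549, 15.34 and 15.10 in MDA-MB-157 and 4.97 and 5.09 in MDA-MB-231. For 27 of the 41 matrix genes MDA-MB-231 was nearer to the basal-like mean than to the other mesenchymal-like lines, as it was for 50.1% of all tested genes. The same count was 13 of 31 for mesenchymal surface genes, 8 of 17 for mesenchymal transcription factors and 6 of 27 for membrane traffic genes.

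Matrix remodelling genes gave no call among 24 tested of 29 on the array, with 18 above 0. Of the 24, 4 passed the filter only through the mesenchymal-like arrays and 1 only through the basal-like ones. At an unadjusted p under 0.05, 2 were higher (3.9% of all tested genes) and 3 lower (4.39%). TIMP2, an inhibitor of metalloproteinases, read 13.11 to 14.14 (median 13.93) against 9.38 to 11.65 (3.28, adjusted p = 0.298). ADAM19, a surface metalloproteinase, read 9.36 to 11.35 (median 10.94) in the mesenchymal-like lines, 8.11 and 7.76 in SUM 149 and background in MDA-MB-468 (adjusted p = 0.386). Neither gene overlapped between the subtypes. Among 18 tested integrins 0 were called, 1 was higher and 1 lower at an unadjusted p under 0.05, and the median was 0.24. ITGB3, the beta-3 chain, read 6.78 and 7.25 in MDA-MB-231, 7.24 and 7.22 in BT549 and 6.21 and 5.88 in MDA-MB-157, and was undetected in the basal-like lines (1.83, adjusted p = 0.385).

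Besides CDH11, the genes called higher in the mesenchymal-like lines were of varied function. ABI3BP, a matrix-associated protein, was at least 18.1-fold higher (adjusted p = 0.0611), and AFF3, a nuclear factor of the AF4 family, at least 14.1-fold (adjusted p = 0.0590). FCGRT, the neonatal Fc receptor that recycles IgG and albumin, read 9.91 to 10.63 (median 10.09) against 5.47 to 6.46 (4.19, adjusted p = 0.0480). These 3 genes were expressed in all mesenchymal-like lines. CCDC106 was at least 29.1-fold higher (adjusted p = 0.0468) and DLK2, a relative of the NOTCH ligand DLK1, was higher by 4.08 (adjusted p = 0.0603), although the second DLK2 probe gave 0.21. RBMS3, an RNA-binding protein, was at least 6.60-fold higher (adjusted p = 0.0490), and HEG1, a receptor of endothelial junctions, was higher by 3.50 (adjusted p = 0.0617) and detected in all 5 lines.

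A further 3 of the 12 were neighbours on the X chromosome, armadillo-repeat genes whose products sit on the mitochondrial outer membrane or in the nucleus. ARMCX6 read 10.42 to 11.14 (median 10.70) in the mesenchymal-like lines and 4.54 to 5.31 in the basal-like ones, which is at least 35.6-fold (standard error of the log2 difference 0.354, adjusted p = 0.0228). ARMCX1 was at least 31.8-fold higher (adjusted p = 0.0410) and ARMCX3 at least 21.1-fold (adjusted p = 0.0316). None was detected on any of the 4 basal-like arrays by its brightest probe, though the third probes of ARMCX6 and ARMCX3 gave only 0.66 and 0.09. The neighbours were then read, a choice made after these values were seen. ARMCX2 was bright in MDA-MB-231 (11.91 and 11.93) and BT549 (11.10 and 11.19), at 5.18 and 5.29 in MDA-MB-157 and undetected in the basal-like lines (4.83, adjusted p = 0.716). ARMCX4 was at background in all lines. On either side RPL36A, GLA and HNRNPH2 had differences of 0.32, 0.17 and 0.15, and ARMCX5, further along, had −0.17, and in these genes the lines overlapped. GPRASP2, a sorting protein of receptors beyond ARMCX5, did not overlap and had 2.47 (adjusted p = 0.340). Further along, the line means of TCEAL9 did not overlap either (3.90, adjusted p = 0.726), with MDA-MB-468 at background and SUM 149 at 10.53 and 10.75, while TCEAL8, BEX2 and BEX3 had 2.74, 2.46 and 2.77 with overlapping lines.

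**Figure D4:**
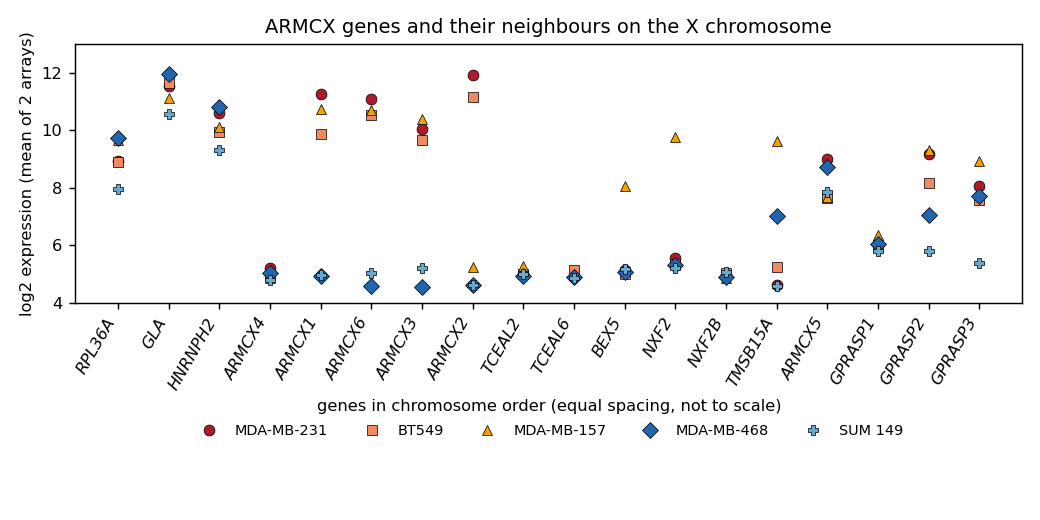
Mean log2 expression of 2 un-stimulated arrays per line (y axis) for the ARMCX genes and their neighbours in chromosome order (x axis, equal spacing), with 1 symbol per line. ARMCX1, ARMCX6 and ARMCX3 separate the 3 mesenchymal-like lines, all above 9, from the 2 basal-like lines, while the lines overlap for RPL36A, GLA, HNRNPH2 and ARMCX5.

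Most interferon-stimulated genes, which defend cells against viruses, had differences above 0 without stimulation, and 1 was called. OAS2, an RNA-sensing oligoadenylate synthetase, read 9.79 and 9.72 in MDA-MB-231, 11.05 and 12.17 in BT549 and 11.03 and 10.81 in MDA-MB-157, and was undetected in the basal-like lines at 5.16 to 5.62. It was at least 35.4-fold higher (adjusted p = 0.0753), with 2 of 4 probes called and the others at adjusted p of 0.149 and 0.227. IFIT1, which binds foreign RNA caps, read 10.57 to 13.34 (median 12.06) against 7.60 to 8.63 (3.92, adjusted p = 0.135). The arrays did not overlap for HERC5, the ISG15 ligase (2.63, adjusted p = 0.108), IFIT2 (2.97, adjusted p = 0.178), IFIT3 (2.70, adjusted p = 0.207) or ISG15 itself (3.35, adjusted p = 0.414). Of 44 members, all tested, 2 passed the filter only through the mesenchymal-like arrays, OAS2 among them. Of the 44, 41 were above 0 and 18 did not overlap and were higher (11.9% of all tested genes). At an unadjusted p under 0.05, 12 were higher (3.9%), and the median was 1.34. The 2 cultures of BT549 were spread in this group, with IFIT3 at 9.35 and 11.01 and ISG15 at 14.35 and 15.29. Antigen presentation genes, which interferon also drives, had a median of 0.38 over 23 tested, with 0 called and 0 at an unadjusted p under 0.05.

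Signaling genes gave no call. EGFR, the epidermal growth factor receptor, read 12.77 and 12.85 in MDA-MB-468, 11.19 and 11.42 in SUM 149 and 9.26 to 11.16 (median 9.80) in the mesenchymal-like lines, where MDA-MB-231 came close to SUM 149 (−1.98, adjusted p = 0.613). ERBB3 had −3.38 (adjusted p = 0.300). Over 18 tested genes of EGFR signaling the median was 0.19, with 0 higher and 1 lower at an unadjusted p under 0.05. In the WNT pathway, ligands and a receptor lay in opposite directions: WNT10A was undetected in the mesenchymal-like lines (−3.85, adjusted p = 0.178), while WNT5B had 3.29 (adjusted p = 0.164) and the receptor FZD2 2.95 (adjusted p = 0.149). DKK3, a secreted relative of WNT inhibitors, read 7.47 and 7.60 in MDA-MB-231, 11.36 and 11.22 in BT549, 13.53 and 13.39 in MDA-MB-157 and background in the basal-like lines (6.11, adjusted p = 0.452), though another of its probes gave 0.09. Over 31 tested WNT genes, 3 were higher (3.9% of all tested genes) and 2 lower (4.39%) at an unadjusted p under 0.05.

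In the TGF-beta pathway, a driver of the mesenchymal state, 20 of 32 tested genes were above 0, with a median of 0.45 and 0 calls, and 4 were higher (3.9% of all tested genes) and 1 lower (4.39%) at an unadjusted p under 0.05. LTBP2, a latent TGF-beta binding protein, had 2.68 (adjusted p = 0.204), and SMAD3, a signal transducer, 1.68 (adjusted p = 0.497). SMAD4, the shared partner of the SMADs and a tumor suppressor, split the basal-like lines: it read 4.65 and 4.61 in MDA-MB-468, at background, and 11.22 and 11.07 in SUM 149, with 9.62 to 10.84 (median 10.10) in the mesenchymal-like lines. Its difference of 2.31 (adjusted p = 0.877) thus rests on 1 line, and was −0.95 without it. Of 17 tested tumor suppressors and cell cycle brakes, CDH1 alone was called.

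No gene was called among the metallothioneins, cell cycle genes or lipid enzymes. Metallothioneins, which bind zinc and copper, were below 0 in 6 of 6 tested members, of 8 on the array. MT1F read 12.46 to 13.03 in the basal-like lines and 6.62 to 9.45 (median 7.04) in the others (−5.11, adjusted p = 0.170), and MT1H was undetected in the mesenchymal-like lines (−3.51, adjusted p = 0.226). Neither overlapped. Cell cycle genes had a median of −0.29 over 40 tested, with RRM2, the ribonucleotide reductase subunit, at −1.18 (adjusted p = 0.587) and the proliferation marker MKI67 at −1.48 (adjusted p = 0.588). Cholesterol and fatty acid enzymes had a median of −0.52 over 27 tested, with EBP, a sterol isomerase, at −1.19 (adjusted p = 0.383). At an unadjusted p under 0.05, 2, 4 and 3 members of these groups were lower (4.39% of all tested genes) and 0, 1 and 0 higher (3.9%).

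Breast stem cell and surface state markers had 0 calls among 16 tested, and 5 were lower at an unadjusted p under 0.05 (4.39% of all tested genes). The aldehyde dehydrogenases ALDH1A3 and ALDH1A1, which underlie a common stem cell assay, had −2.54 (adjusted p = 0.498) and −3.77 (adjusted p = 0.414). Both were higher on all basal-like arrays than on any mesenchymal-like array. Targets of YAP and TEAD, the effectors of the Hippo pathway, had a median of 0.42 over 25 tested, and cytokines and chemokines −0.39 over 30, with 0 calls in either. At an unadjusted p under 0.05, 2 YAP and TEAD targets were higher (3.9% of all tested genes) and 3 cytokines lower (4.39%). Markers of blood and endothelial cells, which these cultures should lack, gave 7 tested of 15 on the array, with a median of −0.02. Housekeeping genes had a median of 0.01 over 10 tested.

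CDCP1, the surface protein that the study pursues, varied widely between lines, and its probes gave different pictures of the subtypes. By the brightest of 4 probes it read 11.86 and 12.10 in MDA-MB-231, 9.79 and 9.65 in BT549, 5.25 and 5.26 in MDA-MB-157, 8.11 and 8.14 in MDA-MB-468, with 10.12 and 9.64 in SUM 149. By this probe the mesenchymal-like lines held both the highest and the lowest level, and the difference was −0.02 (standard error 1.99, adjusted p = 0.999), with −0.07 and −0.01 by 2 others. The study itself measured CDCP1 RNA on the arrays by the probe ILMN_1708167. Its western blots showed CDCP1 protein in MDA-MB-468 but none in MDA-MB-157. The probe ILMN_1708167 read 8.89 and 9.16 in MDA-MB-231, 7.61 and 8.02 in BT549, 7.48 and 7.57 in MDA-MB-157, 7.22 and 7.49 in SUM 149 and background in MDA-MB-468, at 5.06 and 5.19. Its line means did not overlap, MDA-MB-468 was the lowest, and the difference of 1.88 (standard error 0.818) did not pass (adjusted p = 0.723). The kinases SRC and PRKCD, which act with CDCP1, had 0.16 (standard error 0.454, adjusted p = 0.976) and −0.14 (standard error 1.08, adjusted p = 0.994). PRKCD was highest in MDA-MB-231, at 11.21 and 11.34.

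The same contrast was made on the 10 WHF-treated arrays of these lines, which are other cultures of the same lines and no further lines. There limma called 65 probes lower (0.276%) and 20 higher (0.085%), and 54 probes were called in both conditions (67.5% of the un-stimulated and 63.5% of the WHF-treated calls). All 80 un-stimulated calls had the same sign with WHFs. Their median was −4.74 without and −4.77 with WHFs for the lower probes, and 4.34 and 4.25 for the higher. The change of the difference was called for 0 of 23516 probes, with 890 at an unadjusted p under 0.05 (3.78%), 4 of them among the 80. It ran from −1.45 to 1.72 over the 80. The highest value was that of FGFBP1 and the lowest that of an OAS2 probe (3.28 without and 1.83 with WHFs). The other called OAS2 probe changed by −1.18. These differences of FGFBP1 and OAS2 were nearer to 0 in WHF-treated cells.

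**Figure D5:**
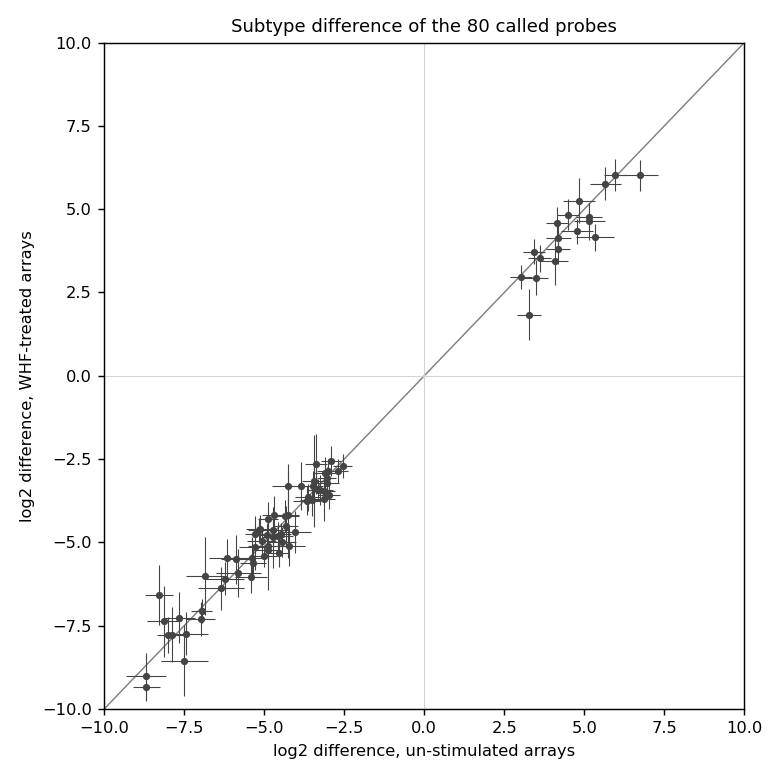
Subtype difference (log2, mesenchymal-like minus basal-like) of the 80 called probes on un-stimulated arrays (x axis) and on WHF-treated arrays (y axis), with bars for the standard error of each. All 80 points have the same sign on both axes, with changes between the axes from −1.45 (an OAS2 probe) to 1.72 (FGFBP1).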

How the data were processed

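RNA of 5 cell lines was measured on Illumina HumanHT-12 beadchips. The authors extracted bead signals with BeadStudio and deposited the average intensity of 47319 probes without normalization, with a detection p-value from negative control probes. They also deposited intensities after quantile normalization (47323 probes). Probe names came from an annotation of another array version than the methods name.

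Background was corrected by limma 3.58.1 (normexp, detection p-values), followed by quantile normalization over 20 arrays and log2 with an offset of 16. Probes detected (p under 0.05) on at least 4 of the 10 un-stimulated arrays were tested. Replicates were averaged per line, and 5 line means entered limma with empirical Bayes and Benjamini-Hochberg adjustment at 0.1. Genes were read by their brightest tested probe. The number of lines limits the precision.

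The members and lists were chosen with earlier results of these data known. Genes were named as the 10 highest and 10 lowest called differences, in each list up to 4 genes with the highest moderated statistic in size, called genes of widest spread within a subtype, and the study's genes. S100A14, S100A7A, MIR205, TMEM30B, LCN2, CLDN7, KRT8, KRT19, ARMCX2 and its neighbours, TWIST1, PRRX1, SPARC, COL1A2, COL3A1, CDH2, DKK3, ISG15, IFIT3, RBMS3 and HEG1 were added after their values were seen. The fit was tested on simulated data. Alternatives covered normalization, background, offset, filter, lines, replicates, blocks and threshold.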

Additional observations from a re-analysis of the deposited data

Results flagged for a closer look

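In 5 of 186 groups of 4 or 6 arrays, 1 array lay far from the others of its subtype, where chance would flag about 1 in 20 groups, or 9. For MIR205, the A culture of MDA-MB-231 read 5.38 and the other mesenchymal-like arrays 4.72 to 4.96, all below background. For DLK2, the B culture of MDA-MB-468 read 5.62 and the other basal-like arrays 5.06 to 5.09. For ITGB3, the A culture of SUM 149 read 4.82 and the other basal-like arrays 4.97 to 4.98. For ISG15, the A culture of SUM 149 read 10.85 against 9.77 to 9.91 on the other basal-like arrays. For TAP1, a peptide transporter of antigen presentation, the A culture of BT549 read 11.66 against 12.24 to 12.59 on the other mesenchymal-like arrays.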

How the results depend on the processing

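In all 19 settings the called probes that were tested kept their sign, 80 of 80, or 42 of 42 where detection on at least 5 of 10 arrays was asked. For many settings this was fixed in advance. The line means of no called probe overlapped, so leaving lines out could not turn a sign. Settings that changed only the threshold, the filter on detection or the variance trend reused the same differences. That filter left 14 higher and 16 lower of 21774 probes, since genes seen on the 4 basal-like arrays alone cannot pass it, and no filter left 7 and 33 of 47319. The authors' normalized intensities gave 11 higher and 46 lower (48 shared with the 80), no normexp step 11 and 45, an offset of 50 14 and 50, normalization over the 10 arrays 19 and 65, and the 0.05 threshold 10 and 40. A variance trend with robust fitting gave 21 and 78. Replicate B alone gave 29 and 74 and replicate A alone 23 and 69. The letters A and B did not clearly pair the lines (correlations of deviations from −0.09 to 0.13): the replicate block gave 210 and 314, and the line as a random block over 10 arrays 271 and 369. The chip as a random block gave 2572 and 2531 with a negative consensus correlation (−0.72), which narrows the error. With 1 line left out, counts ran from 0 to 58 higher and from 0 to 87 lower, and MDA-MB-231 alone against the basal-like lines gave 0 and 0, with 1378 probes at an unadjusted p under 0.05 by limma.

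Directions turned for genes near 0 or split within a subtype. With MDA-MB-231 alone, values were 0.0300 for ERBB2, 0.24 for KRT19, −2.58 for TWIST1, −0.0255 for PRRX1, −0.66 for COL3A1, −1.93 for CDH2, 2.98 for CDCP1 and 1.91 for PRKCD. Without MDA-MB-468, CDH2 gave −0.73 and SMAD4 −0.95, and without SUM 149 they gave 5.24 and 5.57. CDCP1 gave 0.34 with the authors' values, 0.34 with no normexp step, 0.20 with the offset of 50, 0.11 without replicate A, 1.85 without MDA-MB-157, 0.86 without SUM 149 and −1.52 without MDA-MB-231. Without BT549, ERBB2 gave 0.0651 (−0.174 without MDA-MB-157) and PRKCD 0.48, and PRKCD gave 0.26 without MDA-MB-157 and 0.37 without SUM 149, with −1.17 without MDA-MB-231. SRC gave −0.0607 with the chip block, −0.19 without MDA-MB-231 and 0.36 without BT549. Over 93 named genes and these settings, 1369 values kept their side of the threshold, 235 lost the call, 123 gained it and 22 turned; the cause was not tested. The median of the mesenchymal transcription factors turned under 1 of 18 settings (−0.24 to 1.93), that of EGFR signaling under 3, of the WNT genes under 1 and of the metallothioneins under 3. Those of the S100 and annexin, antigen presentation and cytokine lists turned under 2 each. Those of the tumor suppressors and housekeeping genes turned under 3 each, and that of blood and endothelial markers under 5. Those of the epithelial, matrix and interferon lists did not turn.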
